A study of Mus musculus with 19 samples.

Results

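The proteasome subunits and their direct partners were examined in the suprarenal aorta of mice infused with angiotensin II (Ang II) or saline. Members were the genes whose symbol begins with Psm, then a letter from a to g, then a digit. The interferon-induced subunits Psmb8, Psmb9 and Psmb10 and names marked as pseudogenes were left out, and a value of at least 10 in at least 4 of the 19 mice was required. Of 20408 genes measured, 51 had such a name, 3 were interferon-induced, 2 were pseudogenes and 0 were too low, which left 46 members, all among the 14845 genes tested. They comprised 15 genes of the barrel-shaped core (8 alpha and 7 beta), 17 of the cap that sits on its ends (6 ATPases and 11 others), 3 cap assembly chaperones, 4 core assembly chaperones and 5 other regulators. The remaining 2 names were Psmc3ip, a meiotic recombination partner that only carries the name, and Psme2b, a near copy of Psme2 whose reads may be shared with it.

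All mice were ApoE-/- males of the C57BL6 strain, carried SMA-CreERT2 (Cre recombinase driven by the smooth muscle actin promoter) and had received tamoxifen. IKKβ-/- mice were SMA-CreERT2 Ikkβ Flox/Flox ApoE-/-, so that IKKβ, the kinase that activates canonical NF-κB, was deleted in cells that use this promoter, mainly smooth muscle. Their IKKβ+/+ littermates carried the same Cre without floxed alleles. They were 8 weeks old when tamoxifen was started, by the study's methods (the labels give this as the age at use). After a recovery period they received a 24 h infusion of saline (5 IKKβ+/+ and 4 IKKβ-/- mice) or of Ang II (5 mice of either genotype), labelled as 500 to 1000 ng/min/kg. For the sequenced mice the study's methods give 1000 ng/min/kg. Poly(A) RNA of whole tissue was sequenced, so less RNA per cell and fewer cells of a type cannot be told apart. Each library is 1 mouse, and because mouse numbers run in separate blocks per group, any batch and the group cannot be told apart. Levels are normalized counts, that is read counts divided by a size factor of the library. Ikbkb, which encodes IKKβ, had normalized counts of 594 to 791 and 685 to 779 in IKKβ+/+ mice (saline and Ang II) and of 439 to 586 and 430 to 672 in IKKβ-/- mice. The 6 smooth muscle markers were abundant in every group, with summed counts of 304360 at the lowest. Libraries held 11382573 to 19906694 reads on genes, and 2 IKKβ-/- mice stood apart: mouse X2406 (saline) and mouse X2385 (Ang II) had 38.7% and 37.2% of their values on mitochondrial genes, against 5.99% to 26.5% in the other 17.

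The proteasome degrades proteins that have been tagged with ubiquitin. The related ATPases at the base of the cap grip and unfold the substrate and thread it into the core, other cap subunits bind ubiquitin or cut it off, and the beta subunits Psmb5, Psmb6 and Psmb7 cleave the chain inside the core. The transcription factor Nfe2l1 is known to raise all of these subunits together when the proteasome is inhibited, through antioxidant response elements in their promoters. In smooth muscle and heart, degradation by this route is part of how contractile mass is built up and lost.

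Promoter windows of 300 bases (250 before the start and 50 after it, RefSeq, GRCm38.p6) were matched by symbol for 38 of the 46 members, which gave 41 windows, 12 of them for the core and 15 for the cap. The antioxidant response element TGACNNNGC, read on both strands, was found in 6 of the 41 (14.6%), against 12.4% of all 32851 windows, with 2 in the core and 2 in the cap. The CCAAT box was found in 13 (31.7%), against 37.4% of all windows. Another motif, the ETS core CCGGAAG (which binds factors such as GABPA in many housekeeping promoters), was picked after some of these promoters had been read. It was found in 10 of the 15 cap windows (66.7%) and in 1 of the 12 core windows (8.33%), against 8.86% of all windows. When the motif was picked, 7 cap and 2 core windows had been read. Among the windows that had not been read by then it was found in 6 of 8 cap windows and 1 of 10 core windows, a description and not a test. Psmc2 gave 2 of these cap windows, and by gene the counts were 5 of 7 cap and 1 of 9 core genes. No letters of the 3 motifs overlapped in the stretches shown here, and members had a median GC content of 59% over the window against 52.7% of all windows. The cap matches are shown because the motif was more frequent there than in the core or in all windows, with 30 bases around each match, 5′ to 3′ on the strand of the gene, and the ETS core (or its reverse complement CTTCCGG) in capitals. Distances are given from the RefSeq start, counted as 0.

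Psmc1, chr12:100110163-100110192, plus strand, first motif base at -28: tggtggatgcaCTTCCGGcggtggcgattt
Psmc2, chr5:21785180-21785209, plus strand, first motif base at -84: accagtgagcaCTTCCGGgatggggctcgc
Psmc2 at its other start, chr5:21786712-21786741, plus strand, first motif base at -24: gcgcggagctaCTTCCGGtggggaagagaa
Psmc6, chr14:45329713-45329742, plus strand, first motif base at -100: aggcgggccagCCGGAAGgggcggagccag
Psmd2, chr16:20651615-20651644, plus strand, first motif base at -26: tccgcagggcgCTTCCGGtctggaggacaa
Psmd4, chr3:95042721-95042750, minus strand, first motif base at -125: ttacagctgttCCGGAAGctgctgcgaagg
Psmd6, chr14:14120972-14121001, minus strand, first motif base at -45: cagagacgcgaCCGGAAGtcagactggcgg
Psmd11, chr11:80428593-80428622, plus strand, first motif base at -11: cgagggcgggtCTTCCGGgtgtgtgtttcc
Psmd12, chr11:107479500-107479529, plus strand, first motif base at -17: tgagcgggcgaCTTCCGGtgcgagtgacga
Psmd13, chr7:140882377-140882406, plus strand, first motif base at -6: cgcccgcggtgCCGGAAGtgagcgagcact

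The matches to the antioxidant response element in the core (16.7% of its windows, against 12.4% of all windows) lay in the promoters of 2 of the 3 catalytic subunits. They are given in the same way with the matched letters in capitals. The cap matches, in Psmd12 with the first base at -247 and in Psmc6 at -227, are not shown.

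Psmb5, chr14:54618023-54618052, minus strand, first motif base at -47: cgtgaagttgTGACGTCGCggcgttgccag
Psmb6, chr11:70525338-70525367, plus strand, first motif base at -9: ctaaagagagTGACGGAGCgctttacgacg

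For a view of a whole proximal promoter, the 160 bases before the start of Psmd4, the ubiquitin receptor of the cap, and of Psmb6 are given, with all matches to the 3 motifs in capitals (in Psmd4 the ETS core and an inverted CCAAT box, in Psmb6 the antioxidant response element).

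Psmd4, chr3:95042615-95042774, minus strand: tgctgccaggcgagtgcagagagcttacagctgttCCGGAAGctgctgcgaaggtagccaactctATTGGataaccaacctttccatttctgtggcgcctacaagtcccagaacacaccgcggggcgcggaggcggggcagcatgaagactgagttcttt
Psmb6, chr11:70525197-70525356, plus strand: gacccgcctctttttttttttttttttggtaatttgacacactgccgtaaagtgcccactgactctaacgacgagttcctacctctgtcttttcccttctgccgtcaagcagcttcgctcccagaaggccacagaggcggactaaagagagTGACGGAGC

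A match is a description of letters and not a binding site. Of the 9 genes called higher with Ang II in IKKβ+/+ mice (limma's adjusted p below 0.1 and fold change above 1.2), 4 had a window with the ETS core (Psmc1, Psmd4, Psmd6 and Psmd12), 3 had a window without it (Psmc4, Psmc5 and Psmd14), and Psmc3 and Psmd7 had no window in the table. Over all cap genes with a window, 9 of 14 held it, among them Psmc2, Psmc6, Psmd2, Psmd11 and Psmd13, which were not called. A link between the motif and the calls was not tested.

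**Figure D1:**
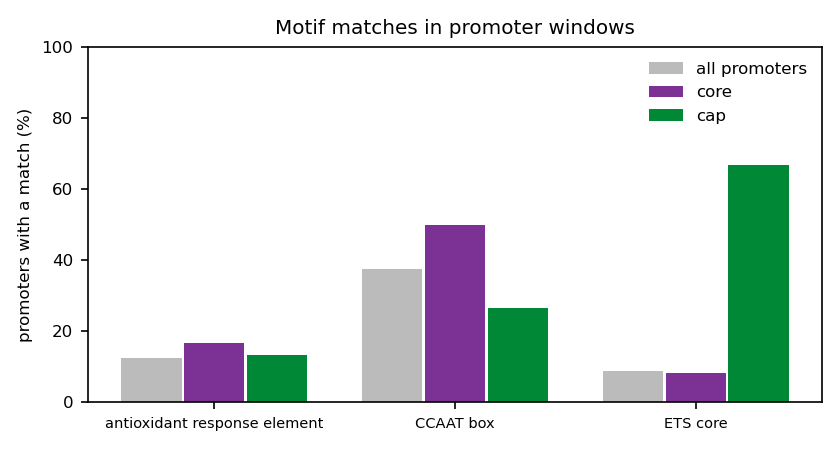
Share of promoter windows (y axis, percent) that hold each of 3 motifs, for all 32851 windows (grey), the 12 core windows (purple) and the 15 cap windows (green). The cap stands at 66.7% for the ETS core while the core and all windows stand at 8.33% and 8.86%.

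In the aorta of saline-infused IKKβ+/+ mice, the cap subunits were expressed within a narrower range than the core subunits. Per kilobase of the principal transcript, the mean normalized count of cap subunits ran from 317 for Psmd11 to 1006 for Psmc3, a 3.17-fold range. Core subunits apart from Psma8 ran from 128 for Psma3 to 1314 for Psma7, a 10.3-fold range, and the low end rests on the long transcript annotated for Psma3. Psma8, the alpha subunit of the testis proteasome, was nearly absent, at 5.93 per kilobase. The catalytic subunits differed among themselves, with levels per kilobase of 297 for Psmb5, 750.1 for Psmb7 and 1219 for Psmb6. Outside the core and cap, members ran from 31.5 per kilobase for Psmc3ip to 695 for Psme1, a subunit of the activator that replaces the cap. Within a group, log2 values of a subunit varied between mice with a median SD of 0.15 in the cap and 0.19 in the core, against 0.30 over all genes tested.

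The first comparison asked what 24 h of Ang II did in IKKβ+/+ mice. Cap subunits were higher with Ang II: 9 of 17 passed the test and all 9 rose, by 0.27 to 0.40 on the log2 scale, while 0 of 15 core subunits passed it. The cap genes that rose were the ATPases Psmc1, Psmc3, Psmc4 and Psmc5, the ubiquitin receptor Psmd4, the deubiquitinase Psmd14, its partner Psmd7, and the scaffold subunits Psmd6 and Psmd12. Of all genes tested 8.66% passed and 4.33% passed as higher. The median log2 fold change was 0.32 over the cap, 0.20 over the core and 0.22 over all 46 members, against 0.01 over all genes tested. All 17 cap subunits and 14 of 15 core subunits had a value above 0 (Psma8 was below), and 14 and 5 of them had an unadjusted p under 0.05. That the cap passed and the core did not is not shown to be a difference between them, since cap against core was described and not tested.

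Psmc4 (ENSMUSG00000030603.16, chr7:28041707-28050101), an ATPase of the cap base, had the lowest adjusted p of the members. Its normalized counts were 914, 958, 962, 972 and 990.0 in saline-infused IKKβ+/+ mice. With Ang II they were 1116, 1169, 1222, 1319 and 1488, so that every treated mouse stood above every control. The log2 fold change was 0.39 ± 0.10 (SE), with limma's adjusted p = 0.035.

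Psmc5 (chr11:106256154-106263120), the ATPase next to it in the ring of the base, had counts of 881, 892, 909, 953 and 1019 with saline. Its counts were 1048, 1055, 1128, 1265 and 1382 with Ang II, and the groups did not overlap. The log2 fold change was 0.33 ± 0.09 (limma, adjusted p = 0.041).

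Psmc3 (chr2:91054009-91066369) is another ATPase of the base and the most abundant cap transcript per kilobase. Its counts were 1461, 1665, 1669, 1706 and 1732 with saline and 1837, 1880.2, 1968, 2115 and 2506 with Ang II, a log2 fold change of 0.32 ± 0.09 (adjusted p = 0.044). Psmc1 (chr12:100110154-100123405), which helps to open the gate of the core, went from 1199 ± 78.5 to 1445 ± 146 (mean ± SD, n = 5 each), a log2 fold change of 0.27 ± 0.09 (adjusted p = 0.085). In both genes all Ang II mice stood above all saline mice. The other 2 ATPases, Psmc2 and Psmc6, had smaller values that did not pass the test.

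Psmd14 (chr2:61711694-61800376) is the metalloprotease of the cap that removes ubiquitin chains from substrates. Its counts were 588, 687, 688, 734 and 742 with saline. They were 757, 852, 903, 947 and 1101 with Ang II, a log2 fold change of 0.40 ± 0.11 (adjusted p = 0.047). The lowest Ang II mouse stood just above the highest saline mouse.

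Psmd7 (chr8:107580381-107588464) forms a pair with Psmd14 in the assembled cap. Its counts were 1263, 1425, 1463, 1497 and 1561 with saline and 1631, 1692, 1722, 2114 and 2347 with Ang II, again without overlap, a log2 fold change of 0.39 ± 0.10 (adjusted p = 0.039). The ubiquitin receptor Psmd4 (chr3:95032694-95042614) had counts of 930.1, 954, 958, 988 and 999.6 with saline and 1056, 1084, 1095, 1346 and 1423 with Ang II, a log2 fold change of 0.30 ± 0.09 (adjusted p = 0.068). Its saline values were tightly grouped, and its Ang II values fell into a pair of mice far above them and 3 mice just above them.

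Psmd6 (chr14:14112174-14120984) and Psmd12 (chr11:107479484-107504362), scaffold subunits of the cap lid, rose by 0.33 ± 0.10 and 0.34 ± 0.12 on the log2 scale (adjusted p = 0.068 and 0.099). In both, 1 Ang II mouse fell below the highest saline mouse. Altogether 7 of 17 cap subunits (4 ATPases, Psmd4, Psmd7 and Psmd14) and 0 of 15 core subunits were higher in every Ang II mouse than in every saline mouse, which 3.95% of all genes were. The largest log2 fold change of any member was that of Psmd8, another lid subunit, with counts of 1099 to 1350.5 with saline and 1326 to 2208 with Ang II. It varied more between mice and did not pass the test (0.52 ± 0.18, adjusted p = 0.102).

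The catalytic core subunits did not pass the test. Psmb5 (chr14:54614119-54618022), with chymotrypsin-like activity, had counts of 206, 254, 265, 287 and 325 with saline. It had counts of 317, 331, 353, 376 and 431 with Ang II, where 1 mouse overlapped the saline range, and its log2 fold change of 0.44 ± 0.16 exceeded that of every called cap gene (adjusted p = 0.12). Psmb6 (chr11:70525367-70527858), with caspase-like activity, had counts of 836, 850.3, 981, 1001 and 1196 and 896, 1048, 1078, 1356 and 1387 (0.24 ± 0.13, adjusted p = 0.31). Psmb7 (chr2:38588036-38644087), with trypsin-like activity, had 794, 839, 864, 896 and 957 (saline) and 864, 878, 887, 965 and 1170.4 (Ang II) (0.12 ± 0.10, adjusted p = 0.53). In each of Psmb6 and Psmb7, 3 of the 5 Ang II mice lay inside the saline range, and Psmb7's value was close to 0 when counts were scaled to total reads.

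**Figure D2:**
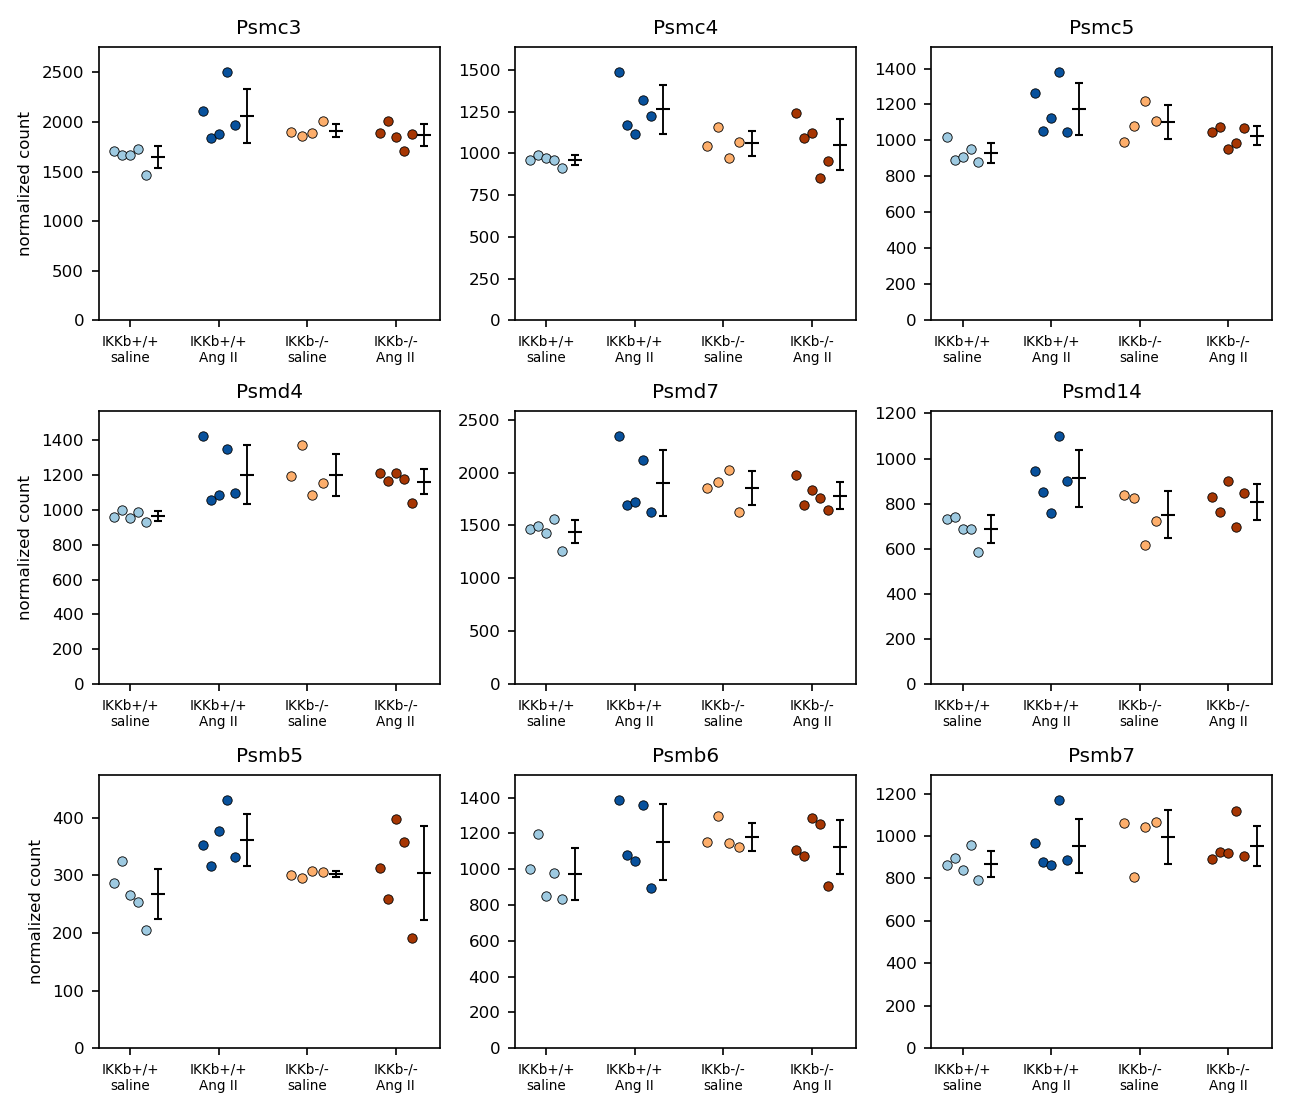
Normalized counts (y axis, from 0) of 6 cap subunits and the 3 catalytic core subunits in each of the 19 mice, by group, with mean and SD beside the points. For the 6 cap subunits the dark blue points (IKKβ+/+ with Ang II) lie above all light blue points (IKKβ+/+ with saline), while the catalytic subunits overlap.

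The rise was unequal between mice. When each gene's log2 value was centred on its mean over the 19 mice and the 17 cap subunits were averaged, the saline-infused IKKβ+/+ mice stood at -0.33 to -0.11. Ang II mice X2350 and X2358 stood at 0.33 and 0.38, with 17 of 17 cap subunits above their own means in each. Ang II mice X2352, X2356 and X2359 stood at 0.04, -0.04 and 0.03, with 10, 7 and 11 of 17 above. For the 14 core subunits without Psma8 the saline range was -0.33 to -0.04. Mice X2350 and X2358 reached 0.21 and 0.28 in the core, while the other 3 Ang II mice, at -0.10 to -0.05, lay inside the saline range. The cap average minus the core average was 0.06 to 0.13 in the 5 Ang II mice and -0.10 to 0.07 in the 5 saline mice, with saline mouse X2373 (0.07) above Ang II mouse X2356 (0.06). Leaving out 1 mouse at a time moved the count of called members, to 0 for mouse X2350, 1 for mouse X2358, 2 for saline mouse X2378, 5 for saline mouse X2370 or X2376 and 15 for mouse X2356, while the median log2 fold change of the members stayed between 0.16 and 0.27.

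**Figure D3:**
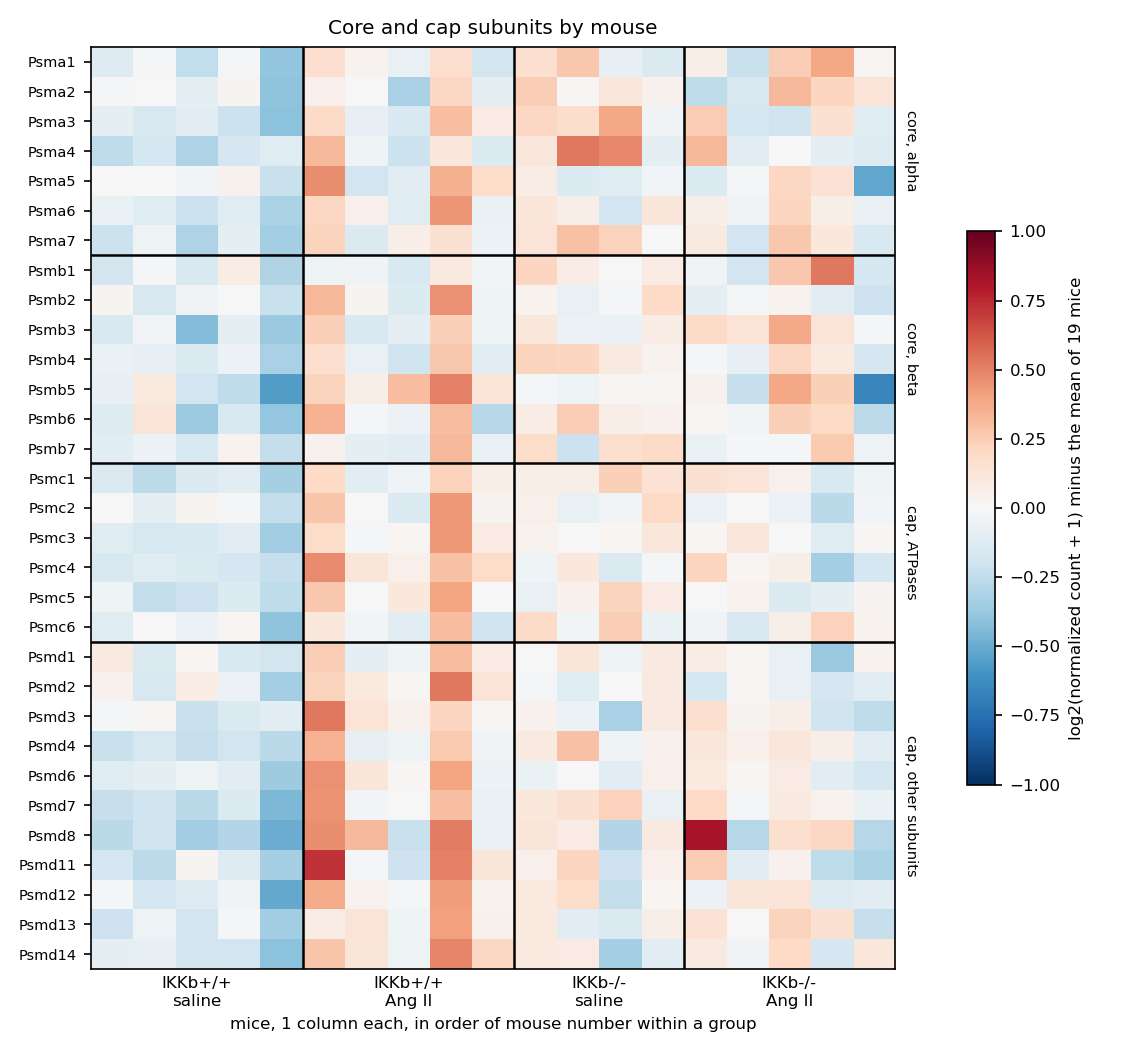
Log2(normalized count + 1) of 14 core subunits (Psma8 is not drawn) and 17 cap subunits, 1 row each, in 19 mice, 1 column each, with the mean of each row subtracted (red above, blue below). The reddest IKKβ+/+ Ang II columns are mice X2350 and X2358, in which all 17 cap rows are above their means.

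Other measurements moved with this comparison. The summed smooth muscle markers (6 of 6 genes above 0, 2 called higher) were 331003 to 438667 with saline and 458946 to 633459 with Ang II. The summed endothelial markers were 18470 to 32586 and 10523 to 20910 (4 of 5 genes below 0, 0 called), and the fibroblast markers were 57224 to 75508 and 22761 to 72664 (5 of 5 below 0, 1 called lower). The share of values on mitochondrial genes was 5.99% to 9.07% with saline and 10.1% to 14.1% with Ang II. When counts were scaled to total reads in place of the deposited scaling, the median of all genes moved to -0.12 and that of the members to 0.10, with 0 called. The members stood 0.22 above the median of all genes under both scalings. A change of scaling shifts all genes of a library alike, so this gap was bound to stay nearly the same and adds no support. Of the other marker lists, striated muscle had 1 of 4 genes called higher (summed counts 39.9 to 180.4 and 144 to 482). Macrophage and leukocyte, adipocyte, brown fat, Schwann and neuronal, and erythroid markers had 0 of their tested genes called. The summed Schwann and neuronal markers were 116 to 507 with saline and 185 to 3599 with Ang II (median 219). Th and Dbh of that list were not tested. Their means were 1.76 and 4.26 with saline and 185 and 378 with Ang II. The part of these shifts in the result was not tested. On whole reads recovered from the deposited values, DESeq2 called 17 members and edgeR 10, all higher and each including the 9 above, against 12.7% and 9.25% of all genes in either direction. DESeq2's calls took in Psmb5 and Psma6 of the core, and edgeR's took in 0 of the core.

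In IKKβ-/- mice no proteasome gene was shown to change with the same infusion. Of the 46 members 0 passed limma's test, 3 had an unadjusted p under 0.05, and DESeq2 and edgeR called 0 as well, against 5.29% of all genes called by limma, 7.85% by DESeq2 and 4.86% by edgeR. The median log2 fold change was -0.04 over the members, -0.05 over the cap and -0.06 over the core. Of the subunits, 5 of 17 cap and 3 of 15 core subunits had a value above 0. No member was higher in all Ang II mice than in all saline mice, which 2.41% of all genes were. The 3 members at an unadjusted p under 0.05 were regulators or near copies outside the core and cap: Psme3 at 0.37 ± 0.15, Psme1 at -0.22 ± 0.10 and Psme2b at -0.62 ± 0.25.

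Psmc4 had counts of 969, 1045, 1067 and 1155 in saline-infused and 851, 952, 1089, 1119 and 1244 in Ang II-infused IKKβ-/- mice (-0.02 ± 0.11). Psmc5 had 994, 1081, 1111 and 1221 (saline) and 955, 988, 1048, 1067 and 1074 (Ang II) (-0.10 ± 0.09), and Psmd7 had 1632, 1850.1, 1913 and 2019.6 (saline) and 1643, 1694, 1763, 1832 and 1978 (Ang II) (-0.06 ± 0.11). Psmd14 had 618, 723, 827 and 839.7 (saline) and 697, 763, 832, 846 and 899 (Ang II) (0.11 ± 0.12). In all of these the groups overlapped. Among the catalytic subunits, Psmb5 was nearly constant with saline, at 295, 300.2, 306 and 308, and widely spread with Ang II, at 192, 259, 313, 358 and 397. Psmb6 had 1123, 1146, 1149 and 1297 (saline) and 909, 1071, 1105, 1254 and 1286 (Ang II), and Psmb7 had 806, 1043, 1062 and 1067 (saline) and 894, 904, 920.3, 925 and 1119 (Ang II). The extreme values among the members were Psma8 at -0.65 ± 0.62, from counts of 3.6 to 18.3 (saline) and 1.29 to 16.1 (Ang II) that allow no firm value, Psme2b at -0.62, Psmg1 at 0.26 ± 0.17 and Psme3 at 0.37.

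The cap average of IKKβ-/- mice ran from -0.06 to 0.05 with saline and from -0.10 to 0.12 with Ang II, and the core average from 0.04 to 0.13 and from -0.17 to 0.18. The cap minus core values of the 5 Ang II mice split into 0.07 to 0.09 in mice X2380, X2383 and X2386 and -0.13 and -0.26 in mice X2384 and X2385. Adipocyte marker genes moved in this comparison, with 4 of 4 tested called higher. Their summed counts were 159 to 611 with saline and 1195 to 24351 with Ang II. Of endothelial markers 1 of 5 was called higher and the other 4 were below 0 (median -0.25). Schwann and neuronal markers were 3 of 3 above 0, with 1 called. In the remaining lists 0 were called. Smooth muscle (5 of 6, median -0.21) and striated muscle markers (3 of 4, -0.45) lay mostly below 0. Macrophage and leukocyte (5 of 5), erythroid (3 of 3) and brown fat markers (2 of 2) were above 0. Fibroblast markers were mixed (3 of 5 above 0). The part of these shifts in the result was not tested. Without mice X2385 and X2406 together, a choice made after seeing the data, 0 members were called in IKKβ-/- and 10 in IKKβ+/+ mice.

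**Figure D4:**
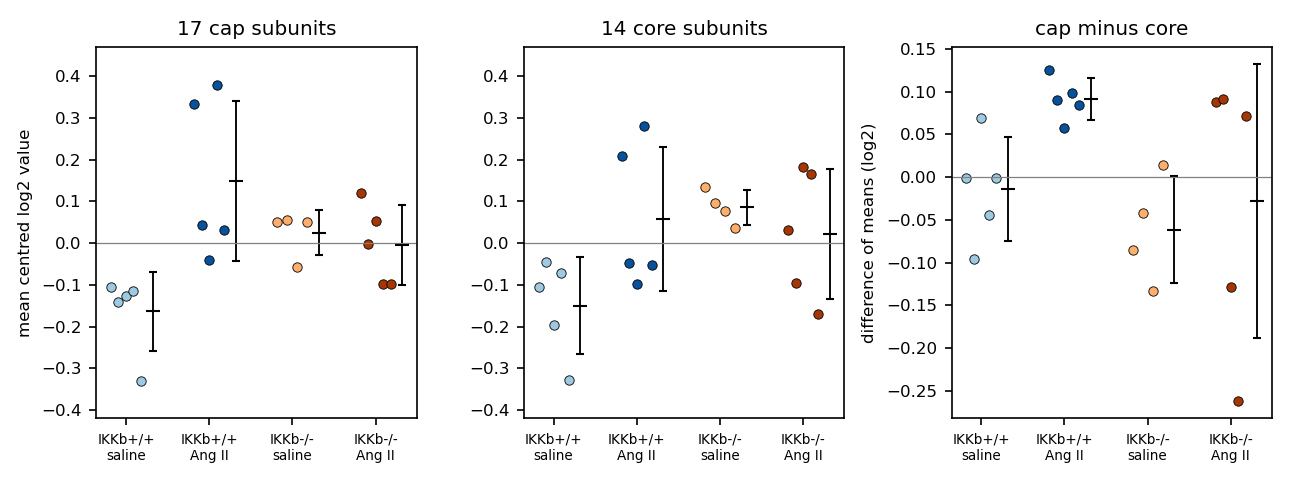
Mean centred log2 value of the 17 cap subunits (left), of 14 core subunits without Psma8 (middle), and their difference (right) in each mouse by group, with mean and SD beside the points. IKKβ+/+ Ang II mice (dark blue) lie above IKKβ+/+ saline mice (light blue) in the left panel and overlap them in the other panels, and IKKβ-/- groups overlap in all 3.

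The difference of the Ang II effect between genotypes was tested for each gene as an interaction, IKKβ-/- minus IKKβ+/+. By limma no member passed (smallest adjusted p = 0.27), and 0% of all genes passed (smallest adjusted p = 0.21), so that a difference in response is not shown for any single subunit. All 32 core and cap subunits were below 0, with medians of -0.28 over the core and -0.35 over the cap, against a median near 0 over all genes. All 4 groups enter each of these values, so they are not independent of the Ang II effects given above. At an unadjusted p under 0.05 there were 13 members, 10 of the cap and 3 of the core (Psma3, Psma4 and Psma7), against 1654 of 14845 genes. The lowest p among the members was that of Psmc5, with a difference of -0.43 ± 0.13 (adjusted p = 0.27), followed by Psmd7 with -0.44 ± 0.15 (adjusted p = 0.31). The widest differences were those of Psme2b (-0.60 ± 0.34) and Psmd11 (-0.50 ± 0.22), and the highest were those of the cap chaperone Psmd10 (0.32 ± 0.23) and of Psme4 (0.13 ± 0.18). DESeq2 on recovered reads called Psmc5 alone among the 46 members, near the 1.88% of all genes it called, and edgeR called 0 members and 0.0202% of all genes. Within each marker list every tested gene lay on the same side of 0, and 0 were called. Smooth muscle (6 of 6, median -0.57) and striated muscle markers (4 of 4, -1.61) were below 0. Adipocyte (4 of 4, median 3.66, 4 at an unadjusted p under 0.05), brown fat (2 of 2, 2.51), Schwann and neuronal (3 of 3, 1.46), erythroid (3 of 3, 1.21), fibroblast (5 of 5, 0.73), macrophage and leukocyte (5 of 5, 0.63) and endothelial markers (5 of 5, 0.48) were above 0. Their part in the result was not tested.

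**Figure D5:**
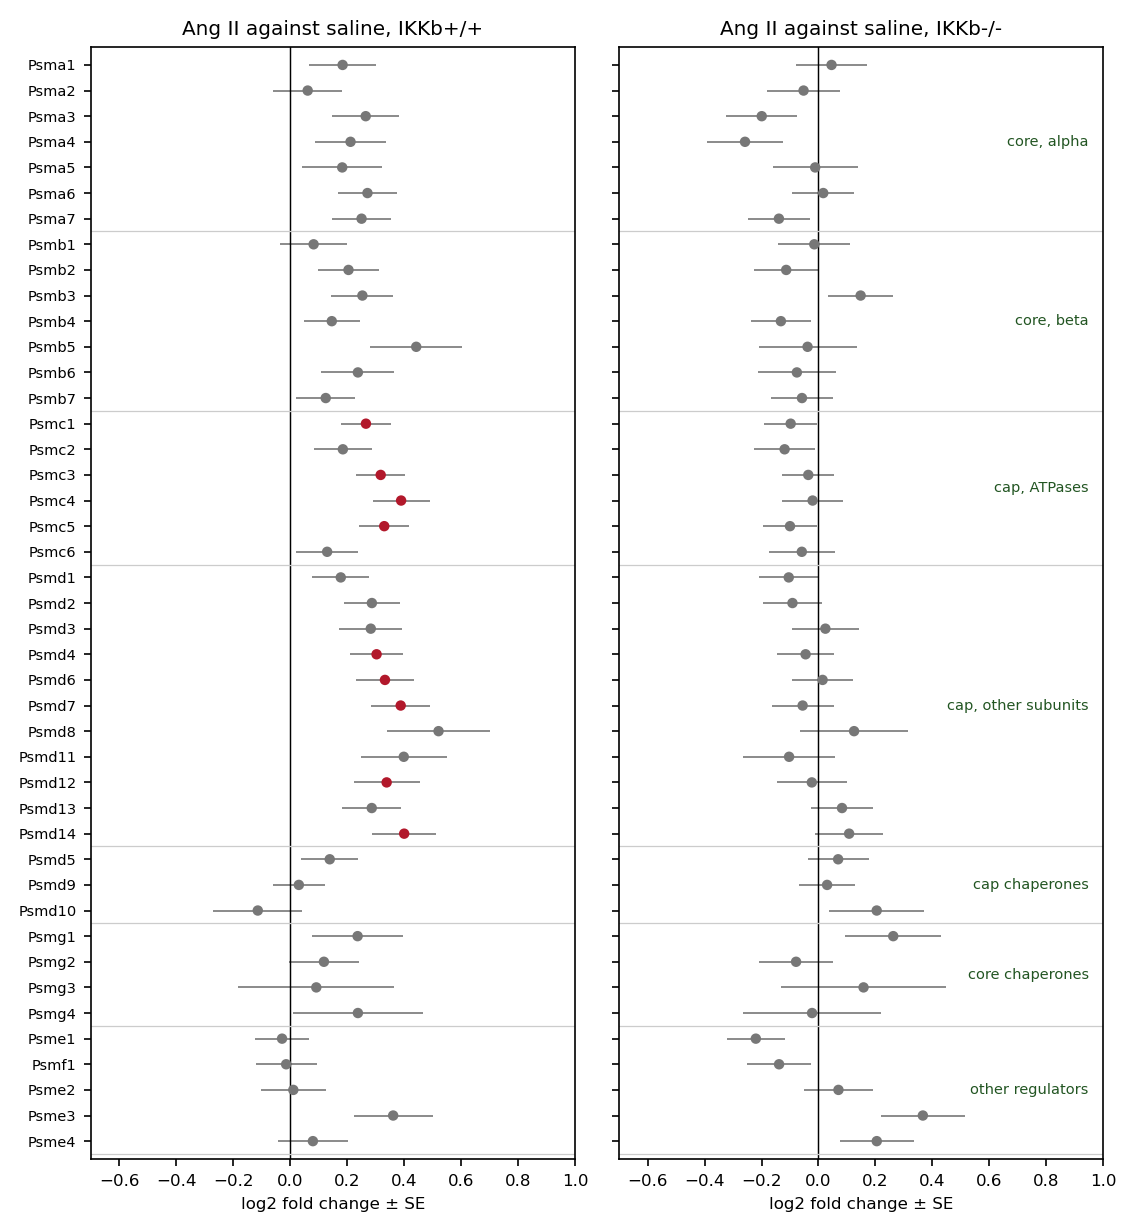
Log2 fold change of Ang II against saline (x axis) with SE for 43 members, 1 row each and grouped by role, in IKKβ+/+ (left) and IKKβ-/- mice (right), with called genes in red (Psma8, Psmc3ip and Psme2b are not drawn). The 9 red points are cap subunits on the left, and cap subunits on the right lie between -0.12 and 0.12.

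The genotypes were next compared without Ang II. In saline-infused mice 5 of 46 members were called, all higher in IKKβ-/-: Psma4 and Psma7 of the core, Psmc1 and Psmd7 of the cap, and Psme2b. Among all genes 5.47% were called, 3.4% as higher. The median log2 difference was 0.19 over the members (0.21 over the core and 0.19 over the cap) against -0.02 over all genes, and 39 of 46 members were above 0. In 10 members every IKKβ-/- mouse stood above every IKKβ+/+ mouse, which 4.68% of all genes did: Psma3, Psma4, Psma7, Psmb4, Psmc1, Psmc3, Psmd4, Psmd7, Psme1 and Psme2b.

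Psma4 (chr9:54950790-54958030), an alpha subunit of the core's outer ring, had saline counts of 1046, 1081, 1145, 1152 and 1186 in IKKβ+/+ and 1211, 1396, 1799.8 and 1860.5 in IKKβ-/- mice (0.46 ± 0.13, adjusted p = 0.076). The IKKβ-/- mice fell into a pair near the controls and a pair far above them. Psma7 (chr2:180036374-180042433), of the same ring, had 1090.3, 1113, 1185, 1289 and 1329.9 (IKKβ+/+) and 1374, 1505, 1614 and 1691 (IKKβ-/-) (0.36 ± 0.11, adjusted p = 0.081). Psmc1 had 1088, 1145, 1243, 1250.3 and 1268 (IKKβ+/+) and 1428, 1429, 1517 and 1619.6 (IKKβ-/-) (0.32 ± 0.09, adjusted p = 0.074), and Psmd7 differed by 0.36 ± 0.11 (adjusted p = 0.084) from the counts given above. Psme2b had 61.2, 64.3, 64.6, 71.2 and 80.2 (IKKβ+/+) and 93.6, 110.0, 146 and 169 (IKKβ-/-) (0.88 ± 0.25, adjusted p = 0.072), whereas Psme2, of which it is a near copy, had 367 to 470.2 (IKKβ+/+) and 377 to 484 (IKKβ-/-) (0.11 ± 0.12). At the low end were Psme3 (-0.20 ± 0.15), Psme4 (-0.12 ± 0.13) and Psma8, and Psmg4, a core chaperone at low counts, stood at 0.39 ± 0.24.

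On recovered reads DESeq2 called 8 members and edgeR 6, all higher and each including these 5, against 9.69% and 5.62% of all genes in either direction. The limma calls rested on single mice and on the scaling. The number of called members was 0 without any 1 of IKKβ+/+ mice X2370, X2373 and X2376 or of IKKβ-/- mice X2401, X2403 and X2406, and 1, 2 and 8 without IKKβ+/+ mice X2378 and X2372 and IKKβ-/- mouse X2409. It was also 0 without mice X2385 and X2406 together. Leaving out Ang II-infused IKKβ-/- mouse X2380, which enters only through the shared spread, gave 8. When counts were scaled to total reads the median of all genes moved to -0.27 and that of the members to -0.07, with 13 of 46 above 0 and 0 called, so that the direction against 0 depends on the scaling. The members stood 0.21 above the median of all genes under both, a gap that a change of scaling leaves nearly unchanged by construction. The mitochondrial share was 8.89% to 38.7% in these IKKβ-/- mice. Macrophage and leukocyte markers were lower in IKKβ-/- mice with saline (5 of 5 without overlap, 3 called, summed counts 4696 to 6602 against 2375.9 to 3678), and smooth muscle markers were 331003 to 438667 against 426240 to 583450. Adipocyte markers (4 of 4 below 0, median -2.39, 4 at an unadjusted p under 0.05) had sums of 167 to 7538 against 159 to 611. Endothelial (5 of 5, -0.76), fibroblast (5 of 5, -0.49), erythroid (3 of 3, -0.58) and brown fat markers (2 of 2, -0.92) were also below 0, and striated muscle (3 of 4, median 1.15) and Schwann and neuronal markers (2 of 3, 0.32) lay mostly above 0. None of the genes in the lists other than the macrophage and leukocyte list was called. The part of these shifts in the result was not tested.

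With Ang II in both genotypes 0 of 46 members were called by limma (3 at an unadjusted p under 0.05), against 0.128% of all genes. The median was -0.06, with 16 of 17 cap subunits below 0 (median -0.17) and 10 of 15 core subunits below 0 (median -0.03). The members at an unadjusted p under 0.05 were Psmd2, Psmc4 and Psmc5. Psmd2, a ubiquitin-binding subunit of the cap base, had counts of 1839, 1943, 1996, 2126 and 2619.8 in IKKβ+/+ and 1615, 1620.2, 1689, 1724 and 1834 in IKKβ-/- mice, and every IKKβ-/- mouse stood below every IKKβ+/+ mouse (-0.30 ± 0.10, adjusted p = 0.21). Psmd11 had -0.30 ± 0.15, Psma8 -0.49 ± 0.58, and at the other end stood Psme2b (0.29 ± 0.23) and Psmd10 (0.31 ± 0.16). DESeq2 called Psmd2 alone among the 46 members, against 3.58% of all genes, and edgeR called 0 members and 0.108% of all genes. In this comparison 0 genes of the cell type marker lists were called. Smooth muscle (6 of 6, median -0.20) and striated muscle markers (4 of 4, -0.54) were below 0. So were macrophage and leukocyte markers (5 of 5, -0.28) and 4 of 5 endothelial markers. Adipocyte (4 of 4, median 1.31) and brown fat markers (2 of 2, 1.59) were above 0. Schwann and neuronal markers were too (3 of 3 tested, 1.21, each at limma's unadjusted p under 0.05). Th and Dbh of that list, which were not tested, had means of 185 and 378 in IKKβ+/+ and 0.635 and 1.19 in IKKβ-/- mice. Fibroblast (4 of 5) and erythroid markers (2 of 3) lay mostly above 0. The part of these shifts in the result was not tested.

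The 3 Psmd and 4 Psmg assembly chaperones did not pass the test in any comparison. Psmd5, Psmd9 and Psmd10, which hold the cap ATPases during assembly, had log2 fold changes with Ang II of 0.14 ± 0.10, 0.03 ± 0.09 and -0.11 ± 0.16 in IKKβ+/+ mice. Psmg1, Psmg2, Psmg3 and Psmg4, which help to form the alpha ring, had 0.24 ± 0.16, 0.12 ± 0.12, 0.09 ± 0.27 and 0.24 ± 0.23. Among the regulators, Psme1 and Psme2, which form an interferon-induced activator, had -0.03 ± 0.10 and 0.01 ± 0.11, and the inhibitor Psmf1 had -0.01 ± 0.11. Psme3, the nuclear activator, had 0.36 ± 0.14 in IKKβ+/+ (counts 509, 650.2, 699, 722 and 726 with saline and 706, 743, 879.7, 919 and 1001 with Ang II) and 0.37 ± 0.15 in IKKβ-/- mice (counts 423, 596, 617 and 682 (saline) and 631, 675, 754, 765 and 881 (Ang II)), with adjusted p = 0.14 and 0.2 and a difference of 0.01 ± 0.20. Psmc3ip had counts of 31.7 to 47.5 with saline and 24.1 to 50.2 with Ang II in IKKβ+/+ mice, and 34.1 to 72.4 and 24.1 to 74.6 in IKKβ-/- mice. The 14 members outside the core and cap had a median of 0.05 with Ang II in both genotypes.

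Of the interferon-induced subunits, which take the place of the catalytic ones, 2 of 3 were called lower with Ang II in IKKβ+/+ mice. Of all genes 8.66% were called there, in either direction. Psmb9 fell from 90.5 to 144 to 22.5 to 70.2 (-1.24 ± 0.30, adjusted p = 0.026) and Psmb8 from 206 to 276 to 112 to 184 (-0.70 ± 0.22, adjusted p = 0.075), in each case without overlap, while Psmb10 had -0.25 ± 0.17 and did not pass. In IKKβ-/- mice Psmb9 (-0.63 ± 0.32), Psmb8 (-0.38 ± 0.24) and Psmb10 (-0.21 ± 0.18) were also below 0 with Ang II, and none passed.

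Of 36 further genes of the ubiquitin and proteasome pathway that were tested, 3 were called with Ang II in IKKβ+/+ mice, all higher, which is 8.33% against the 8.66% of all genes called. They were Pomp, the maturation factor of the core (740.4 to 877 with saline and 795 to 1089 with Ang II, 0.28 ± 0.09, adjusted p = 0.086), Uchl5, a deubiquitinase that docks on the cap (227 to 283 with saline and 305 to 363 with Ang II, 0.34 ± 0.11, adjusted p = 0.088), and Vcp, the ATPase that extracts ubiquitinated proteins for the proteasome (1291 to 1443 with saline and 1462 to 1866 with Ang II, 0.29 ± 0.09, adjusted p = 0.07). The median over the 36 genes was 0.09. In IKKβ-/- mice 6 of the 36 (16.7%) were called with Ang II, against 5.29% of all genes. Among them the ubiquitin gene Ubb was lower, with a log2 fold change of -0.40 ± 0.10, as were Nfe2l2, the oxidative stress factor (-0.62 ± 0.14), and Zfand5, which activates the proteasome (-0.60 ± 0.09). The shuttle factor gene Ubqln4 rose by 0.44 ± 0.13 on the log2 scale. With saline, 5 (13.9%) were called, against 5.47% of all genes, all higher in IKKβ-/- than in IKKβ+/+ mice, among them Pomp (0.35), Rps27a (0.43), Ube3a (0.38) and Zfand5 (0.39), and with Ang II 0 were called. Zfand5 was thus lower with Ang II in IKKβ-/- mice and higher in IKKβ-/- mice with saline, in 2 comparisons that share the saline-infused IKKβ-/- mice. No pathway gene passed the test of the difference.

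Other housekeeping families are given beside the proteasome, whose members had a median of 0.22 with Ang II in IKKβ+/+ mice. There the median was 0.20 over 91 cytosolic ribosomal proteins (7 called higher and 1 lower, 8.79%), 0.22 over 77 mitochondrial ribosomal proteins (10 higher, 13.0%), 0.32 over 8 chaperonin subunits (3 higher, 37.5%) and 0.06 over 32 ubiquitin conjugating enzymes (4 higher, 12.5%), against 8.66% of all genes called. In IKKβ-/- mice the medians were -0.03, 0.09, -0.01 and -0.09, with 0 called in each, against 5.29% of all genes. In saline-infused mice the cytosolic ribosomal proteins had a median of 0.36 for IKKβ-/- against IKKβ+/+ (28 of 91 called higher and 1 lower, 31.9%) and the mitochondrial ones a median of 0.21 (5 of 77 higher, 6.49%), against 5.47% of all genes. The cap, at 9 of 17 called and a median of 0.32 with Ang II in IKKβ+/+ mice, was not tested against these families.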

How the data were processed

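Poly(A) RNA of the suprarenal aorta of 19 mice was sequenced, 1 library per mouse. The authors trimmed reads with Trimmomatic 0.35, aligned them with STAR 2.7.1a to GRCm38 and counted them against Gencode M25. RSEM is also named in their notes. The deposited signal values are read counts divided by DESeq2 1.30.1 size factors, so each library's value of 1 read was recovered and all values were whole reads within 0.1. Groups came from the labels. Log2(value + 1) was fitted with limma 3.58.1 (4 group means, eBayes with trend, R 4.3.3, two-sided) over 14845 genes with at least 10 in at least 4 mice (5563 were not tested), with Benjamini-Hochberg adjustment over all of them. The study's thresholds were used: adjusted p below 0.1 and fold change above 1.2. Fold changes are on the log2(value + 1) scale and understate changes of low genes. edgeR 4.0.16 (quasi-likelihood) and DESeq2 1.42.0 on recovered reads, other scalings, filters and left-out mice were alternatives. The fit was also run on simulated counts with planted changes. These were larger than the changes called in the cap, so recovery of changes of that size was not checked.

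The members and lists were chosen with earlier results of these data known. Named genes were all called members, the 2 highest and 2 lowest per comparison, Psmb5, Psmb6, Psmb7, Psmd14, Psmc3ip, the left-out genes and called pathway genes, some of which are not reported here. Others were named after their values were seen: Psmd2, Psma3, Psme1, Psme2 and the chaperones. Levels per kilobase used the longest principal coding transcript of GENCODE vM21 (GRCm38). Per-mouse averages leave out Psma8, whose low counts would dominate them. Reads shared between near copies (Psme2 and Psme2b, subunits with pseudogenes) cannot be assigned with certainty.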

Additional observations from a re-analysis of the deposited data

Results flagged for a closer look

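Values of 23 named members and of the cap and core averages were checked for 1 mouse far from the rest of its group by Dixon's ratio (the gap to the nearest mouse over the range of the group). Of 100 groups tested, 12 exceeded the 95% limit, where chance gives about 1 in 20 for independent checks. These checks share mice, the averages are built from the subunits, and some members were named for extreme values. The 12 can therefore not be set against that rate.

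In saline-infused IKKβ+/+ mice, mouse X2378 was lowest for the cap average (-0.33, ratio 0.848), for Psmc3 (1461 against 1665 to 1732, ratio 0.768) and for Psmd6 (668 against 787 to 826, ratio 0.768). In saline-infused IKKβ-/- mice, mouse X2406 was lowest for the cap average (-0.06, ratio 0.954), for Psmd8 (1266 against 1638 to 1682, ratio 0.907) and for Psmg1 (124 against 159 to 163, ratio 0.923). This is also the mouse with the highest mitochondrial share. In the same group mouse X2403 was highest for Psmb6 (1297 against 1123 to 1149, ratio 0.840038) and lowest for Psmb7 (806 against 1043 to 1067, ratio 0.918). In IKKβ-/- mice with Ang II, Psma4 was highest in mouse X2380 (1625 against 1184 to 1288, ratio 0.734), Psmb7 was highest in mouse X2385 (1119 against 894 to 925, ratio 0.845), and Psmd4 was lowest in mouse X2386 (1039 against 1162 to 1213, ratio 0.722). In IKKβ+/+ mice with Ang II, Psmd10 was highest in mouse X2358 (265 against 170.3 to 193, ratio 0.714). No cause was tested for any of these.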

How the results depend on the processing

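In IKKβ+/+ mice the 9 calls with Ang II became 0 with scaling to total reads, 17 with DESeq2, 5 at an adjusted p under 0.05 and 0 at a fold change above 1.5, and ran from 0 to 15 with 1 mouse left out. The median of the members was 0.10 with total reads and 0.16 to 0.27 with 1 mouse left out. In IKKβ-/- mice the count was 0 to 1 with 1 mouse left out, with 1 without mouse X2380. For the difference between genotypes DESeq2 called 1, and the median was -0.0947 with total reads. For the genotypes with saline the 5 calls became 3 with no filter on low values, 9 with only the groups compared, 8 with array quality weights, 8 with DESeq2, 0 with total reads, 0 at an adjusted p under 0.05, 1 at a fold change above 1.5 and 0 without mice X2385 and X2406 together, and ran from 0 to 8 with 1 mouse left out. Its median was -0.0660 with total reads. For the genotypes with Ang II, DESeq2 called 1, and the count was 0 to 1 with 1 mouse left out (1 without mouse X2356). Psma8 with Ang II in IKKβ+/+ mice ran from -0.513 to 0.0288 with 1 mouse left out (positive without mouse X2352), and Psmb7 turned to -0.000251 with total reads. Medians near 0 crossed it: that of the members in IKKβ-/- mice with total reads (0.0085), that of the genotypes with Ang II without mouse X2358 (0.0016), and core minus cap in IKKβ-/- mice without X2406 or X2380 (at most 0.0022) and with saline without X2373 (-0.0039). The core median of the genotypes with Ang II was 0.023 with upper quartile scaling and the cap median in IKKβ-/- mice 0.0051 with total reads. Of the named values under alternatives, 896 kept their side of the threshold and their direction, 136 lost the threshold, 16 gained it and 2 reversed. The cause of the changes was not tested, and fits with a mouse left out also have smaller samples. No paired analysis was possible because the groups share no mouse numbers. With 4 or 5 mice per group, even differences larger than the within-group spread of a subunit can fail the test. In IKKβ+/+ mice with Ang II, Psmd8 at 0.52 (SD 0.31) and Psmb5 at 0.44 (SD 0.26) did not pass.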
